A study of Mus musculus with 12 samples.

Results

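Transcribed ultraconserved elements were followed through the 373 array probes whose names begin with "uc.", out of 97836 probes outside the array controls. The probes were taken by name, whatever their signal, but the set was chosen with earlier results of these data known. Their names run from uc.mouse.1 to uc.mouse.483 with 110 numbers absent, and each probe occupied 1 spot per array. The scanner files give these probes no gene name, coordinate, strand or sequence, so the elements are named here by probe only. A number shared with a catalogued human element does not show that the probe reports its mouse counterpart. For that reason 14 elements described in human studies could not be looked up.

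Ultraconserved elements are long stretches of DNA that are identical in human, mouse and rat. Some lie in or beside exons of genes for RNA-binding and splicing proteins, where they can mark exons that expose the transcript to decay, and others act as enhancers near regulators of development. Part of them is transcribed, often as noncoding RNA, and a set of such transcripts is known from human cancer cells to respond to low oxygen.

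The arrays measured total RNA of cultured vascular smooth muscle cells from male mice, with 3 arrays in each of 4 groups. The first was Hif1a△SMC cells, called deleted here, kept for 24 h with 150 µM CoCl2. The second was Hif1a fl/fl cells, called floxed and taken as wild type by the study, under the same CoCl2. The others were deleted and floxed cells given PBS in an equal volume for as long. Hif1a codes for HIF-1alpha, the subunit of hypoxia-inducible factor 1 whose amount depends on oxygen, its disruption was specific to smooth muscle, and CoCl2 is a metal salt that stabilises the HIF-1alpha protein. The sources used here do not name the Cre line, nor whether replicate arrays stand for different cultures or animals. The p-values therefore cover the spread among these arrays alone, and it may be technical. No probe was named for Hif1a or for markers of smooth muscle or other cell types, so neither the disruption nor the cell type was checked on these arrays. Because the RNA was from bulk cultures, fewer cells with a transcript and less of it per cell cannot be told apart. Precision is limited by the number of arrays.

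Deleted cells under CoCl2 stood apart over the whole array. The share of all probes well above background was 58.3% ± 3.7 (SD, n = 3) there, 78.9% ± 7.01 in floxed cells under CoCl2, 76.6% ± 0.917 in deleted cells with PBS and 75.7% ± 2.2 in floxed cells with PBS. Well above background is the stricter of the scanner software's calls, used here, for a spot brighter than its surroundings. A probe without it is termed undetected, though it may still pass the looser call of a significant positive signal. The 75th percentile of log2 signal was 8.09 to 8.28 on the deleted CoCl2 arrays and 9.02 to 9.52 on the other 9. The arrays lay on 3 slides: floxed CoCl2 array 1 shared slide 1 with all floxed PBS arrays, floxed CoCl2 arrays 2 and 3 shared slide 2 with deleted PBS arrays 1 and 2, and all deleted CoCl2 arrays shared slide 3 with deleted PBS array 3. On slides 1 and 3 the PBS arrays lay in the positions before the CoCl2 arrays, and deleted CoCl2 array 2 was scanned on a later day than all other arrays. The part that slide, scan day or overall signal has in each result was not tested beyond the values given with it.

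The ultraconserved-element probes were dim and often undetected. Of the 373, 111 (29.8%) were well above background on all 12 arrays, against 51.3% of the other probes. On no array at all were 103 (27.6%), against 11.1% of the other probes, and the remaining 159 were detected on 1 to 11 arrays. Levels are given below as log2 of the background-corrected signal minus the array's 75th percentile, so that 0 is the signal below which 75% of the probes lie. The mean level over 12 arrays ran from -6.32 to 2.72 with a median of -4.01, against -2.19 for the other probes. In the order of all probes by mean level, 165 lay in the lowest quartile, 104 and 70 in the middle quartiles and 34 in the highest.

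Fewer ultraconserved-element probes were detected in deleted cells under CoCl2 than in any other group. There were 133, 150 and 120 on the deleted CoCl2 arrays, 176, 248 and 217 on the floxed CoCl2 arrays, 202, 196 and 213 on the deleted PBS arrays, and 215, 206 and 190 on the floxed PBS arrays. The deleted CoCl2 arrays lay below all 9 others, while the other 3 groups overlapped. Deleted cells averaged 134 ± 15.0 probes under CoCl2 and 204 ± 8.62 with PBS (SD, n = 3 each), a difference of -69.3 (exact permutation test, two-sided, p = 0.1). Under CoCl2, deleted cells differed from floxed cells, at 214 ± 36.1, by -79.3 (exact permutation p = 0.1). With 3 arrays against 3, 0.1 is the smallest p that the test allows. In floxed cells CoCl2 and PBS differed by 10.0 probes (exact permutation p = 0.7), with 204 ± 12.7 under PBS, and with PBS the genotypes differed by 0.0 (exact permutation p = 1.0). The lower count moved with the lower share of all probes detected on the same arrays.

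**Figure D1:**
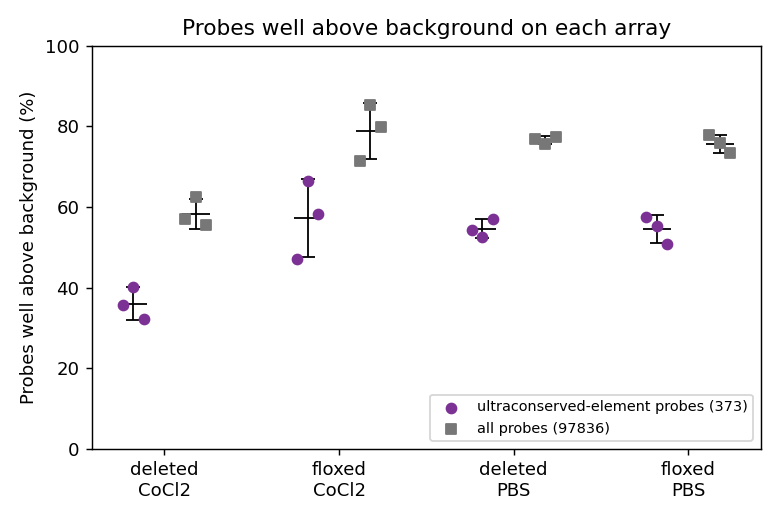
The share of probes well above background (%) is plotted for each array, as circles for the 373 ultraconserved-element probes and squares for all 97836 probes, with the mean and SD of 3 arrays per group. The 3 deleted CoCl2 arrays lie lowest for both sets, at a mean of 36.0% of ultraconserved-element probes and 58.3% of all probes.

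Detection by group fell into a few patterns. A set of 46 probes was well above background on all 9 arrays of the other groups but not on all 3 deleted CoCl2 arrays (12.3%, against 16% of the other probes). Of these, 23 were on no deleted CoCl2 array (6.17%, against 7.1%). Only 1 probe, uc.mouse.231, was detected on all 6 CoCl2 arrays and on no PBS array, a pattern that 3 other probes of the whole array shared. Only 1, uc.mouse.460, was detected on all 6 PBS arrays and on no CoCl2 array, as were 18 other probes. These classes were chosen after the values were seen.

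For the tests, a probe had to be well above background in some group on each of its 3 arrays. This left 199 ultraconserved-element probes (53.4%, against 75.7% of the other probes) and 73998 probes in all. The 174 that did not enter included 71 that were seen on some array. Because the filter takes probes through the group where they are high, counts below describe the 199 only, unless the filter was changed. Counts of the main fit, described next, are set beside the same counts over all tested probes. Counts under other settings, of bounds, or among the probes detected on all 12 arrays are given without that share. Whether those counts are particular to ultraconserved-element probes was not tested. The test was limma's moderated test on 12 arrays with Benjamini-Hochberg adjustment over all 73998 probes, and a probe passed at an adjusted p below 0.05.

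In floxed cells, CoCl2 was followed by a fall of 7 ultraconserved-element probes and a rise of 1. That is 8 of 199 (4.02%), beside 4.64% of all tested probes; 2.06% of all tested probes rose and 2.58% fell. The median change was 0.01 on the log2 scale for ultraconserved-element and for other probes alike. Groups did not overlap for 57 of the 199 probes (28.6%), beside 23.9% of all tested probes.

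The largest fitted fall was that of uc.mouse.460. Its level was -4.90, -5.49 and -5.96 in floxed cells under CoCl2, against -2.99, -3.25 and -2.84 in floxed cells with PBS. All 3 CoCl2 arrays lay below all 3 PBS arrays, and none of the CoCl2 arrays was above background. Its signal was at least 4.81-fold lower, a bound between group means set by the lowest signal above background on each array. Such bounds, here and below, do not allow for the spread among arrays. The fitted log2 change was -2.43 (SE 0.30, 95% interval -3.08 to -1.77, limma adjusted p = 0.00186). In deleted cells the same probe read -4.07, -4.82 and -4.60 under CoCl2 and -3.04, -2.20 and -2.80 with PBS, again without overlap and undetected under CoCl2, and was at least 3.01-fold lower (log2 change -1.82, SE 0.30, limma adjusted p = 0.000684).

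Another low probe, uc.mouse.464, read -4.31, -4.50 and -4.14 in floxed cells under CoCl2 and -2.04, -2.39 and -2.71 in floxed cells with PBS. It fell 3.83-fold without overlap (log2 change -1.94, SE 0.24, limma adjusted p = 0.00196) and kept 2 of 3 CoCl2 arrays above background. In deleted cells it read -3.28, -2.93 and -3.52 under CoCl2 and -1.95, -2.03 and -2.66 with PBS, a fall of 1.03 on the log2 scale (limma adjusted p = 0.00465). It was therefore higher in deleted than in floxed cells under CoCl2, by 1.07 (limma adjusted p = 0.00234), while the difference between the 2 changes was 0.91 (95% interval 0.16 to 1.66, limma adjusted p = 0.0821).

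A brighter probe that fell, uc.mouse.252, was above background on all 12 arrays. It read -1.90, -0.44 and -1.11 in floxed cells under CoCl2 and 0.01, 0.98 and 1.01 in floxed cells with PBS (3.52-fold lower, log2 change -1.82, SE 0.36, limma adjusted p = 0.0156). The groups did not overlap, although the CoCl2 arrays spread widely. In deleted cells its levels were -1.27, -1.79 and -1.18 under CoCl2 and -0.14, 0.13 and 0.05 with PBS, a log2 change of -1.43 (limma adjusted p = 0.00641). Both genotypes thus had the lower level under CoCl2, and the interval of the difference in change was -0.72 to 1.5.

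The remaining falls in floxed cells were smaller or less firmly measured. The probe uc.mouse.466 read -5.93, -4.17 and -5.23 under CoCl2 and -2.83, -3.53 and -3.68 with PBS, and fell by 1.77 (SE 0.38, limma adjusted p = 0.0243) with 1 of 3 CoCl2 arrays above background. In deleted cells uc.mouse.466 was at least 2.80-fold lower under CoCl2 than with PBS (limma adjusted p = 0.000831). Both uc.mouse.336 and uc.mouse.275 had log2 changes of -1.37 in floxed cells (limma adjusted p = 0.0459 and 0.0349), and in deleted cells -1.15 and -0.99 (limma adjusted p = 0.0163 and 0.023). The last of the 8, uc.mouse.324, is named after its values were seen. It read -4.49, -3.82 and -3.66 in floxed cells under CoCl2 and -2.96, -2.98 and -2.57 in floxed cells with PBS, without overlap, and fell by 1.15 (limma adjusted p = 0.0204). In deleted cells uc.mouse.324 was at least 2.29-fold lower under CoCl2 than with PBS (limma adjusted p = 0.0001).

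The only rise that passed in floxed cells was uc.mouse.387, the second brightest ultraconserved-element probe. It read 3.43, 3.27 and 3.24 in deleted cells under CoCl2, 2.62, 2.46 and 2.73 in floxed cells under CoCl2, 2.30, 2.24 and 2.42 in deleted cells with PBS, and 2.12, 1.84 and 1.99 in floxed cells with PBS. No group overlapped another. It rose 1.53-fold with CoCl2 in floxed cells (log2 change 0.62, SE 0.14, limma adjusted p = 0.0334). In deleted cells it rose by 0.99 (limma adjusted p = 0.000334). Under CoCl2 it was higher in deleted than in floxed cells by 0.71 (limma adjusted p = 0.00118). The difference between the 2 changes was 0.38 (95% interval -0.07 to 0.82, limma adjusted p = 0.207). With array number as a block within genotype, the floxed change kept its size of 0.62 at a limma adjusted p of 0.0597.

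With slide as a block 4 probes passed in floxed cells, and with slide as a random effect 6. The block ended the calls of uc.mouse.460 (-1.88, limma adjusted p = 0.0682), uc.mouse.387 (0.212), uc.mouse.336 (0.37) and uc.mouse.275 (0.315). After normexp with quantile normalization uc.mouse.466 changed by -0.42 (limma adjusted p = 0.13). Within slide 1, 1 CoCl2 array met 3 PBS arrays. There all 7 probes named by rule had the direction given above. The rule took only probes without overlap, so this outcome was set in advance and does not bear on slide. The split of 1 higher and 7 lower was 3 and 8 after quantile normalization and 3 and 7 after normexp with quantile normalization. It was 4 and 4 when only the probes detected on all 12 arrays were fitted, and 0 and 8 or 0 and 4 when scaled to 6 or 4 E1A spike-in probes. The count was 2 without floxed PBS array 2, 3 without floxed PBS array 3 or floxed CoCl2 array 3, and 5 without deleted PBS array 1 or 2. Leaving out single arrays ended the call of uc.mouse.387 in 8 of 12 cases (limma adjusted p 0.0525 to 0.165), of uc.mouse.336 in 10 (0.0542 to 0.187), of uc.mouse.275 in 7 (0.0512 to 0.127), and of uc.mouse.252 and uc.mouse.466 in 3 each, but not of uc.mouse.460 or uc.mouse.464.

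**Figure D2:**
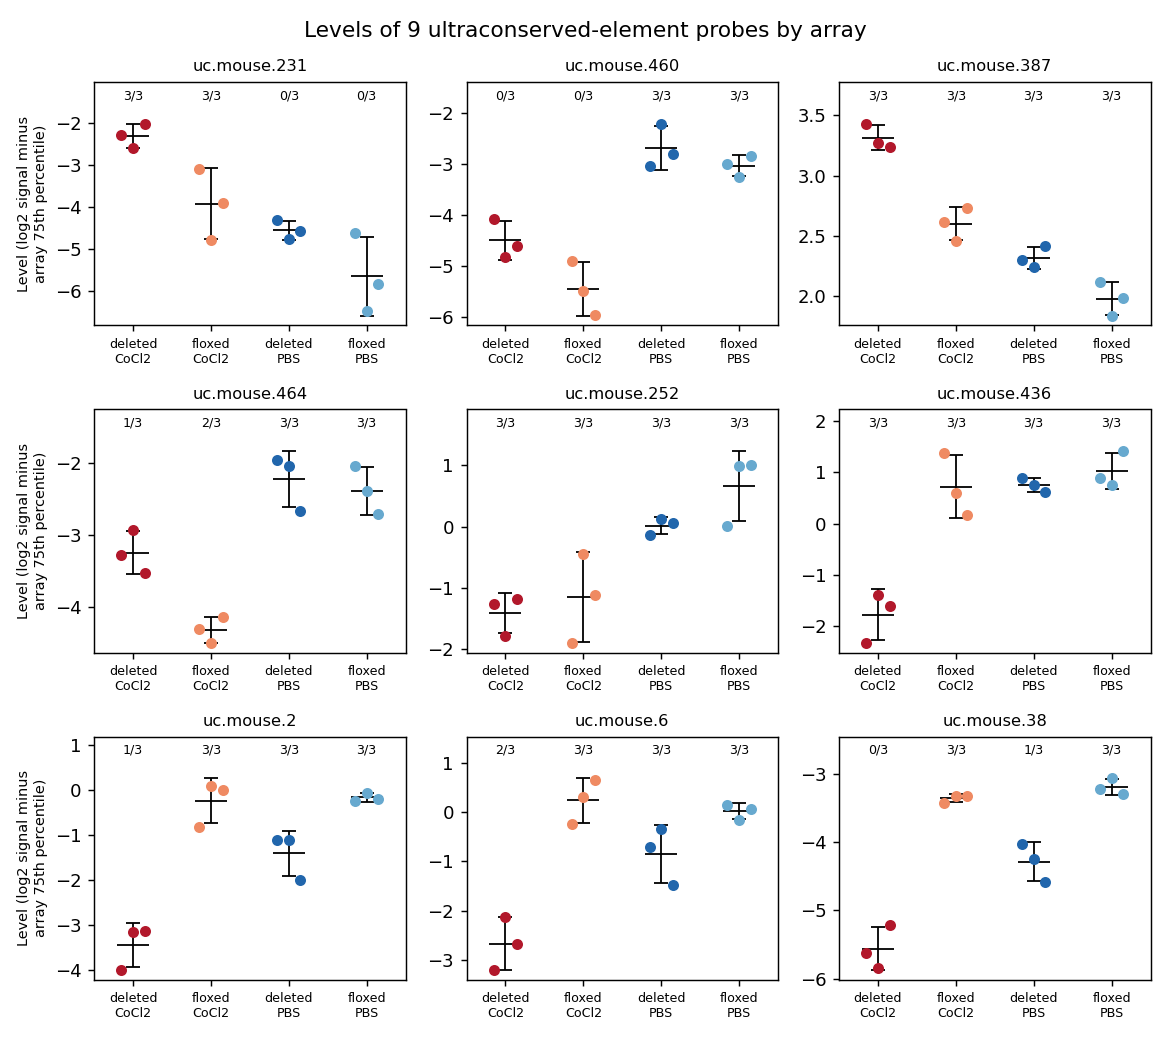
Levels (log2 signal minus the array's 75th percentile) of 9 ultraconserved-element probes are plotted for each array, with the mean and SD of 3 arrays per group; the fraction above each group gives its arrays well above background. The CoCl2 arrays of both genotypes lie above the PBS arrays of the same genotype for uc.mouse.387 and below them for uc.mouse.460, uc.mouse.464 and uc.mouse.252, whereas uc.mouse.436, uc.mouse.2 and uc.mouse.6 are lowest in deleted cells under CoCl2.

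In deleted cells, many more ultraconserved-element probes changed with CoCl2: 27 rose and 66 fell, 93 of 199 (46.7%), beside 51.8% of all tested probes (19.3% higher, 32.5% lower). The median change was -0.23, against -0.15 for the other tested probes. Groups did not overlap for 102 (51.3%), beside 58% of all tested probes. The excess of falls depended on the filter and the scaling. Without a filter on dim probes, over all 373, 99 were higher and 71 lower. With the filter, the split was 38 higher and 43 lower after quantile normalization, 38 and 42 after normexp with quantile normalization, 20 and 85 with the 75th percentile taken over probes detected on all arrays, 13 and 90 when scaled to 6 E1A spike-in probes and 1 and 151 when scaled to 4 of them. The spike-in scalings shifted every log2 change by -0.35 and -1.07. Of the 66 falls, 29 were measured on both sides. The others were of probes undetected in deleted cells under CoCl2, of which 35 gave a bound, 1 was undetected in both groups and 1 gave no fold. Among the 111 probes detected on every array, 23 rose and 21 fell in the main fit.

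The largest fall measured on both sides was that of uc.mouse.436. It read -2.33, -1.39 and -1.61 in deleted cells under CoCl2, 1.38, 0.60 and 0.17 in floxed cells under CoCl2, 0.88, 0.75 and 0.61 in deleted cells with PBS, and 0.89, 0.75 and 1.42 in floxed cells with PBS. The deleted CoCl2 arrays lay apart from all 9 others, which overlapped, and the probe was detected on every array. It fell 5.75-fold with CoCl2 in deleted cells (log2 change -2.52, SE 0.32, limma adjusted p = 0.000171) and was 2.49 lower on the log2 scale than in floxed cells under CoCl2 (limma adjusted p = 6.34e-05). The change in floxed cells was -0.30, and the difference between the changes was -2.22 (SE 0.45, 95% interval -3.21 to -1.23, limma adjusted p = 0.00859).

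The probe uc.mouse.171 read -3.22, -3.54 and -5.08 in deleted cells under CoCl2 and -0.72, -0.14 and -2.03 in deleted cells with PBS. The groups did not overlap, and no CoCl2 array was above background. It was at least 6.33-fold lower by the bound between group means (fitted log2 change -2.98, SE 0.51, 95% interval -4.1 to -1.87, limma adjusted p = 0.00081). Other falls from detected to undetected were uc.mouse.302 (at least 3.77-fold), uc.mouse.466 (at least 2.80-fold), uc.mouse.108 (at least 2.51-fold) and uc.mouse.206 (at least 2.06-fold), each without overlap.

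Among the rises, uc.mouse.231 was the probe detected under CoCl2 alone. It read -2.30, -2.60 and -2.03 in deleted cells under CoCl2, -3.10, -4.78 and -3.91 in floxed cells under CoCl2, -4.32, -4.77 and -4.58 in deleted cells with PBS, and -4.63, -6.48 and -5.84 in floxed cells with PBS. In deleted cells the groups did not overlap and the signal was 4.74-fold higher under CoCl2 (log2 change 2.25, SE 0.46, 95% interval 1.23 to 3.26, limma adjusted p = 0.00221). The undetected PBS signals lay above the lowest signal above background there, so the bound was the fitted fold itself. In floxed cells the groups overlapped. The signal was at least 2.02-fold higher there by the bound between group means, but the test did not pass (95% interval of the log2 change 0.71 to 2.73, limma adjusted p = 0.0599).

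The largest fitted rise, uc.mouse.10, rested on unequal arrays. It read -3.07, -2.05 and 0.07 in deleted cells under CoCl2 and -4.04, -4.29 and -3.91 in deleted cells with PBS, with no overlap and a change of 2.40 (SE 0.71, limma adjusted p = 0.015). The rise of uc.mouse.10 ran from 1.52 to 3.09 as single arrays were left out. The probe uc.mouse.307 read -2.62, -2.21 and -3.36 under CoCl2 and -4.20, -4.15 and -3.86 with PBS in deleted cells (1.34, SE 0.29, limma adjusted p = 0.00304), and uc.mouse.370 rose by 1.41 (SE 0.43, limma adjusted p = 0.0169).

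The neighbouring numbers uc.mouse.23, uc.mouse.24 and uc.mouse.25 rose together in deleted cells. The first read 0.50, 0.33 and -0.94 under CoCl2 and -1.49, -1.29 and -1.24 with PBS (log2 change 1.30, SE 0.33, limma adjusted p = 0.00657). The next 2 both changed by 1.22 (limma adjusted p = 0.00743 and 0.00542). For each of the 3, deleted CoCl2 array 3 was the lowest of its group. In floxed cells the change of uc.mouse.23 was 0.87 and did not pass (limma adjusted p = 0.188). Whether these probes share sequence or a transcript is not given in the files.

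With slide as a block 42 probes passed (8 higher, 34 lower). Within slide 3, where 3 CoCl2 arrays met 1 PBS array, all 12 probes named by rule kept their direction. Selection without overlap set that outcome in advance, so it does not bear on slide. Of the named rises, that block ended the calls of uc.mouse.10 (limma adjusted p = 0.124), uc.mouse.370 (0.0939), uc.mouse.307 (0.0896) and uc.mouse.23 (0.0879). Of the 6 named rises, all but uc.mouse.231 were lost when scaled to 4 spike-in probes, whereas the 6 named falls passed under every alternative they entered; uc.mouse.370 was also lost without deleted CoCl2 array 1 or 3 (limma adjusted p 0.0538 and 0.061).

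The CoCl2 comparisons of the 2 genotypes use different arrays, and their probes could be set side by side. All 8 probes that passed in floxed cells also passed in deleted cells in the same direction, which is 100% of the floxed and 8.6% of the deleted list. Over the other tested probes, 92.8% of the floxed rises and 66.9% of the floxed falls also passed in the same direction in deleted cells.

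**Figure D3:**
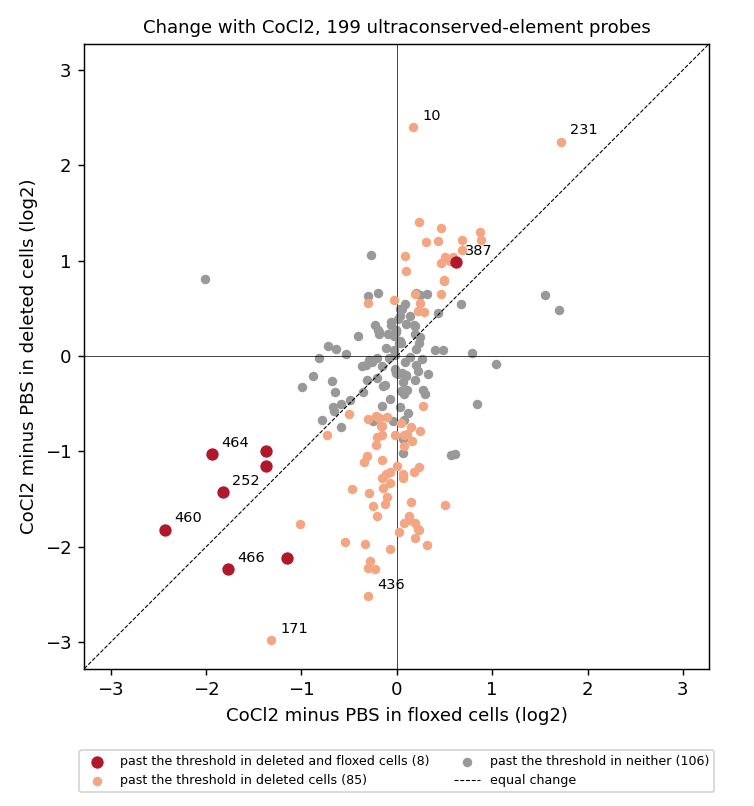
Each point is 1 of the 199 tested ultraconserved-element probes, with its log2 change with CoCl2 in deleted cells (vertical) against that in floxed cells (horizontal); the dashed line marks equal change and the numbers name probes. The 8 probes past the threshold in both genotypes lie at the lower left and upper right, and 85 more, most of them near 0 on the floxed axis, passed in deleted cells.

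With PBS, the disruption of Hif1a was accompanied by lower levels of 3 ultraconserved-element probes and higher levels of none. That is 1.51% of 199, beside 1.57% of all tested probes, of which 0.53% were higher and 1.04% lower. The median change was -0.06, against 0.00 for the other tested probes. Groups did not overlap for 69 probes (34.7%), beside 47.3% of all tested probes.

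The probe uc.mouse.38 read -4.02, -4.25 and -4.59 in deleted cells and -3.22, -3.06 and -3.30 in floxed cells with PBS (log2 difference -1.09, SE 0.19, limma adjusted p = 0.0417). The probe uc.mouse.118 read -4.60, -4.36 and -4.93 in deleted cells, none above background, and -3.81, -3.75 and -3.54 in floxed cells. It was 1.91-fold lower, by the fit and by the bound alike (log2 difference -0.93, SE 0.18, limma adjusted p = 0.0457). The probe uc.mouse.156 read -2.67, -2.75 and -2.67 in deleted cells and -2.06, -1.62 and -1.91 in floxed cells (-0.84, SE 0.17, limma adjusted p = 0.0459). None of the 3 had overlapping groups. Under CoCl2, on other arrays, all 3 were undetected in deleted cells and had only bounds, at least 2.08-fold lower than in floxed cells for uc.mouse.38, 1.47-fold for uc.mouse.118 and 2.30-fold for uc.mouse.156.

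All 3 lay close to the threshold. With slide as a block 1 probe passed and with slide as a random effect 0. With the random effect 39 had an unadjusted limma p below 0.05, a count without a share of all tested probes beside it. No slide held both genotypes with PBS, so slide enters only through the other groups. The count was 0 without floxed PBS array 2 or 3, floxed CoCl2 array 2 or 3 or any deleted PBS array (22 to 45 at an unadjusted limma p below 0.05), 1 without floxed PBS array 1, 6 without deleted CoCl2 array 1 or 2 and 13 without floxed CoCl2 array 1. Scaling changed the split of 0 higher and 3 lower to 2 and 3 after quantile normalization and to 4 and 5 after normexp with quantile normalization. It was 0 and 10 with the 75th percentile over probes detected on all arrays, and 0 and 8 or 0 and 7 when scaled to 6 or 4 spike-in probes.

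Under CoCl2, deleted and floxed cells differed at 124 of the 199 probes (62.3%), beside 67.3% of all tested probes. Of these 44 were higher in deleted cells (30.7% of all tested probes were) and 80 lower (36.6%). The median difference was -0.28, against 0.02 for the other tested probes. Groups did not overlap for 118 (59.3%), beside 66.8%. Among the 80 lower probes, 41 were undetected in deleted cells and are bounds. Of the 111 detected on every array, 35 were higher and 28 lower in the main fit. The split moved with the scaling, to 61 higher and 54 lower after quantile normalization, 58 and 50 after normexp with quantile normalization, 18 and 92 with the 75th percentile over probes detected on all arrays, and 12 and 91 or 0 and 146 when scaled to 6 or 4 spike-in probes.

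The largest fitted difference was that of uc.mouse.2, which read -4.0, -3.16 and -3.14 in deleted cells under CoCl2, -0.81, 0.10 and 0.01 in floxed cells under CoCl2, -1.12, -1.11 and -1.99 in deleted cells with PBS, and -0.24, -0.06 and -0.19 in floxed cells with PBS. The deleted CoCl2 arrays lay below all others, and 1 of the 3 was above background. The fitted log2 difference between deleted and floxed cells under CoCl2 was -3.20 (SE 0.32, limma adjusted p = 1.55e-05). That value includes signal not well above background on the other 2 deleted arrays. With PBS the deleted arrays also lay below all floxed arrays, but the difference of -1.25 did not pass (limma adjusted p = 0.0604).

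The probe uc.mouse.6 had a like order of groups, at -3.20, -2.12 and -2.68 in deleted cells under CoCl2, -0.25, 0.30 and 0.65 in floxed cells under CoCl2, -0.72, -0.34 and -1.49 in deleted cells with PBS, and 0.14, -0.17 and 0.06 in floxed cells with PBS. It was 7.46-fold lower in deleted than in floxed cells under CoCl2 (log2 difference -2.90, SE 0.34, limma adjusted p = 3.68e-05), without overlap and with 2 of the 3 deleted arrays above background. The other named falls, undetected on all deleted CoCl2 arrays, were bounds: at least 6.09-fold for uc.mouse.171, 5.02-fold for uc.mouse.88, 3.17-fold for uc.mouse.108 and 2.95-fold for uc.mouse.340.

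Of the probes higher in deleted cells under CoCl2, uc.mouse.298 was the brightest named. It read 2.51, 2.23 and 2.16 in deleted cells under CoCl2 and 1.44, 1.12 and 0.94 in floxed cells under CoCl2, without overlap (log2 difference 1.13, SE 0.18, limma adjusted p = 0.000266). With PBS it read 1.02, 1.16 and 1.40 in deleted cells and 0.53, 0.62 and 0.30 in floxed cells. Scaled to 4 spike-in probes, the difference under CoCl2 was -0.1 (limma adjusted p = 0.791). The other named rises were uc.mouse.231 (1.62), uc.mouse.307 (1.44), uc.mouse.454 (1.34), uc.mouse.20 (1.28) and 1 more at 1.32, and none of them passed under that scaling.

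No slide held deleted and floxed cells under CoCl2 together, and with slide as a block 40 of the 199 probes passed (5 higher, 35 lower). That block ended the calls of uc.mouse.171 (fitted -1.13, limma adjusted p = 0.3), uc.mouse.231 (0.0846), uc.mouse.307 (0.182), uc.mouse.454 (0.307) and uc.mouse.20 (0.0663). It also ended the call of the rise at 1.32, which the naming rule took as well (limma adjusted p = 0.145). The call of uc.mouse.454 (limma adjusted p = 0.0484) ended in 8 of 12 cases when single arrays were left out, and its difference was 0.64 without floxed CoCl2 array 1.

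**Figure D4:**
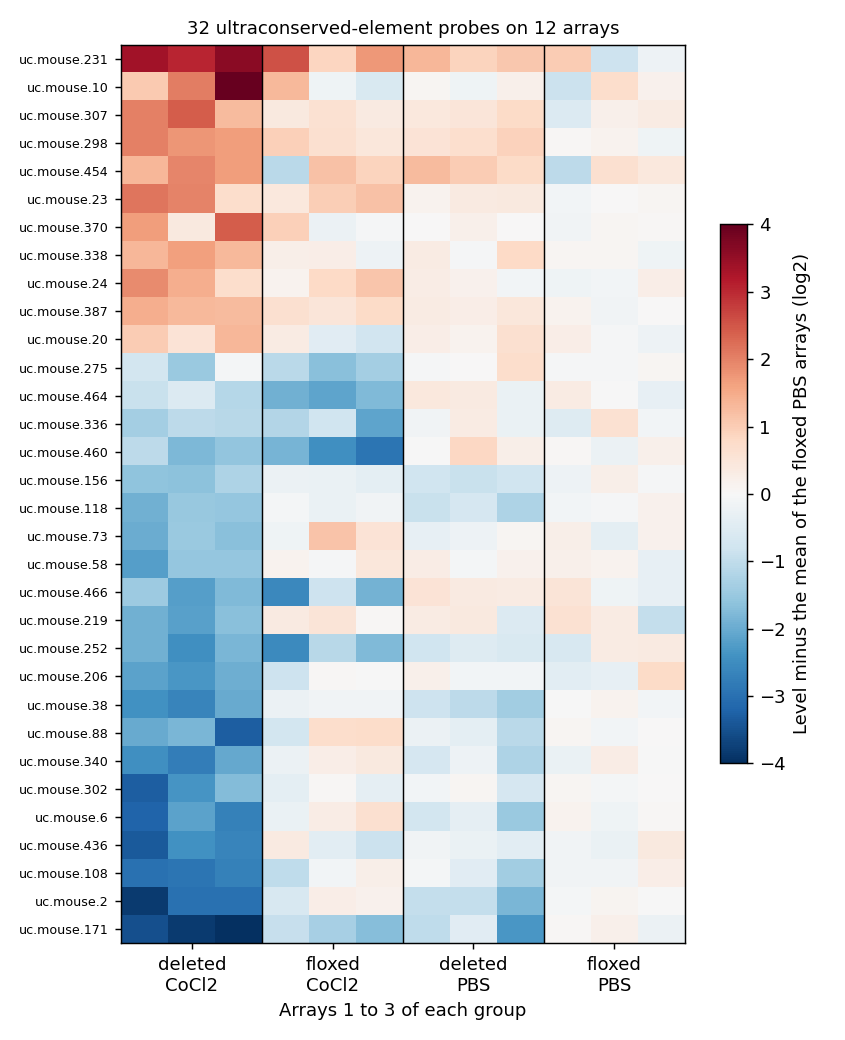
Levels of the 32 ultraconserved-element probes named for a change are shown as colours, relative to each probe's mean on the floxed PBS arrays (log2; red higher, blue lower, colours saturate at 4), with rows ordered by the mean on the deleted CoCl2 arrays and columns by group. Values run from -5.38 to 4.18, and the strongest colours are on the 3 deleted CoCl2 arrays, while uc.mouse.460, uc.mouse.464, uc.mouse.466 and uc.mouse.252 are blue on the CoCl2 arrays of both genotypes.

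The change with CoCl2 differed between the genotypes for 31 of the 199 probes (15.6%), beside 19.7% of all tested probes. All 31 had the lower value in deleted cells, beside 17.2% of all tested probes, and none the higher, beside 2.54%. The median difference of changes was -0.14, against -0.02 for the other tested probes. By size the first 6 were uc.mouse.219 (-2.30), uc.mouse.436 (-2.22), uc.mouse.58 (-2.10), uc.mouse.73 (-2.07), uc.mouse.88 (-2.04) and uc.mouse.6 (-2.04). Of these only uc.mouse.436 was detected on all 12 arrays. The probe uc.mouse.6 was detected on 2 of the 3 deleted CoCl2 arrays and the other 4 on none, so the values of those 4 include signal not well above background. The call of uc.mouse.88 (limma adjusted p = 0.0405) ended in 8 of 12 cases when single arrays were left out (limma adjusted p 0.061 to 0.104).

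With slide as a block 0 probes passed in limma, while 29 had an unadjusted p below 0.05, and with slide as a random effect 17 passed. The count was 15 (4 higher, 11 lower) after quantile normalization and 8 (2 higher, 6 lower) after normexp with quantile normalization, and it was 18 to 20 without floxed PBS array 2, floxed CoCl2 array 2 or 3 or deleted PBS array 2 and 48 without deleted CoCl2 array 3.

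Compared with other probes of like signal, the share of ultraconserved-element probes past the threshold was lower in 17 of 20 quartiles over 5 comparisons, by 0.3 to 14.7 percentage points. With CoCl2 in deleted cells it was 51.4% against 53.9% of other probes in the lowest quartile of mean signal, 41.3% against 51.5% and 45.2% against 50.1% in the middle ones and 50% against 51.6% in the highest. Between genotypes under CoCl2 it was 67.6% against 66.8%, 55.6% against 62.6%, 61.9% against 64.2% and 65.0% against 75.7% in the same order. For the difference of changes it was 24.3% against 26.9%, 11.1% against 21.4%, 14.3% against 15.9% and 0.0% against 14.7%. With CoCl2 in floxed cells it was 5.41% against 2.84%, 3.17% against 3.87%, 2.38% against 5.43% and 5.0% against 6.42%, and between genotypes with PBS 2.7% against 2.96%, 1.59% against 1.13%, 0.0% against 1.24% and 0.0% against 0.947%. These shares are descriptions without a test, over 74, 63, 42 and 20 ultraconserved-element probes from the lowest quartile to the highest. The 5 comparisons reuse the same probes and arrays, so the 20 quartiles are not separate observations. Some shares rest on very few probes, as with the 2, 1, 0 and 0 that passed between genotypes with PBS.

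The direction also followed the signal. With CoCl2 in deleted cells the median change was -0.71 in the lowest quartile and 0.30 in the highest for ultraconserved-element probes, and -0.78 and 0.29 for other probes. Between genotypes under CoCl2 the same medians were -1.0 and 0.57, against -1.09 and 0.64.

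**Figure D5:**
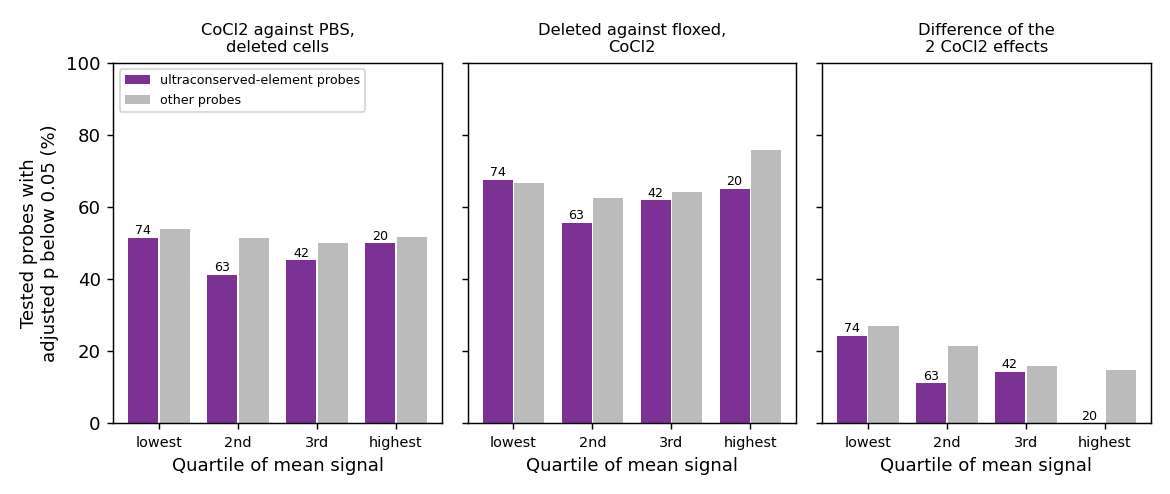
Bars give the share of tested probes (%) with a limma adjusted p below 0.05 in each quartile of mean signal, for ultraconserved-element probes (left bar, with their number above it) and other probes (right bar), in 3 comparisons. Ultraconserved-element probes lie below the other probes except in the lowest quartile of the comparison of genotypes under CoCl2, where they are at 67.6% against 66.8%.

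Of the 8 brightest ultraconserved-element probes, 4 passed in no comparison. By mean level over 12 arrays they were uc.mouse.264 (2.72), uc.mouse.387 (2.56), uc.mouse.13 (2.32), uc.mouse.186 (2.02), uc.mouse.12 (2.01), uc.mouse.169 (2.00), uc.mouse.331 (2.00) and uc.mouse.263 (1.78). Those that passed nowhere were uc.mouse.13, uc.mouse.186, uc.mouse.169 and uc.mouse.263. The brightest, uc.mouse.264, read 3.64, 3.17 and 3.08 in deleted cells under CoCl2, 2.58, 2.43 and 2.64 in floxed cells under CoCl2, 2.79, 2.63 and 2.79 in deleted cells with PBS, and 2.22, 2.32 and 2.37 in floxed cells with PBS. It rose by 0.56 with CoCl2 in deleted cells (limma adjusted p = 0.0152) and was higher in deleted than in floxed cells under CoCl2 by 0.75 (limma adjusted p = 0.00217). The one bright probe that fell, uc.mouse.331, read 0.60, 1.5 and 1.64 in deleted cells under CoCl2 and 2.29, 2.33 and 2.39 in deleted cells with PBS, without overlap (log2 change -1.09, limma adjusted p = 0.00327).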

How the data were processed

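Per the labels' protocols, cyanine-3 cRNA made from total RNA was read on 12 one-colour Agilent arrays; another label field names biotin. Spot intensity in the deposited scanner files is linear and background-corrected; per the file headers the extraction software was Agilent Feature Extraction 11.5.1.1 (GE1_1105_Oct12), against 9.1 in the submitters' processing notes. A deposited value table, used as an alternative, holds log2 values that differed from the scanner values of these probes by a constant on each array; its column medians ran from -2.644 to -1.931, its scale and direction match the scanner values, and the sources used here do not say how it was centred.

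Spots marked as outliers were left out unless a probe had no other spot (3 ultraconserved-element spots carried such a mark, and none was saturated). Log2 processed signal was averaged per probe, and each array's 75th percentile was subtracted. Detection was the scanner's well-above-background call. The fit was limma 3.58.1 (R 4.3.3; lmFit, then eBayes, 12 arrays, 1 mean per group, 8 residual and 3.503 prior degrees of freedom), with 5 contrasts and p-values adjusted over all 73998 probes; it was tested on simulated data. Where a probe was undetected in a whole group, a bound was formed from the higher, per array, of its signal and that of the dimmest probe above background. A bound is taken between group means and has no interval of its own. Its "at least" refers to signal below that of the dimmest probe above background, not to the spread among arrays. The bound equals the fitted fold where the undetected signals lay above that of the dimmest probe. The difference of changes is that of deleted minus floxed cells, and a change is CoCl2 minus PBS or deleted minus floxed.

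The members, the lists and the rule for named probes were chosen with earlier results of these data known. The rule took, in each contrast, the 6 largest rises and 6 largest falls that passed with no overlap of groups (overlap was ignored for the difference), and the 8 brightest probes. Array numbers were checked for pairing: in floxed cells, CoCl2 and PBS arrays of 1 number shared their deviations from the group means (correlations 0.389, 0.402 and 0.441), in deleted cells not all did (-0.134, 0.269 and 0.225). Alternatives were other scalings, filters, slide and array number as blocks, and leaving out each array. The background alternative used the median spot signal, because no mean signal column was used here. Scaling to 4 E1A spike-in probes was added after the data were seen. Lists of marker genes and of genes that carry such elements were not assessed, since no probe was named for them.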

Additional observations from a re-analysis of the deposited data

Results flagged for a closer look

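The change with CoCl2 differed between deleted and floxed cells, by limma's test of the difference itself, for 31 ultraconserved-element probes, all with the lower change in deleted cells. That is 15.6% of the 199 tested, beside 19.7% of all tested probes, of which 17.2% had the lower and 2.54% the higher change. The probes among the 31 that any part of the naming rule took are given here as log2 differences, deleted minus floxed. The value was -2.30 for uc.mouse.219, -2.22 for uc.mouse.436, -2.10 for uc.mouse.58, -2.07 for uc.mouse.73, -2.04 for uc.mouse.88 and -2.04 for uc.mouse.6. It was -2.01 for uc.mouse.302, -1.95 for uc.mouse.2, -1.92 for uc.mouse.108, -1.87 for uc.mouse.206, -1.85 for uc.mouse.340 and -1.11 for uc.mouse.38.

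Of these 12 probes, uc.mouse.436 was detected on all 12 arrays, uc.mouse.6 on 11 and uc.mouse.2 on 10. The other 9 were undetected on all 3 deleted CoCl2 arrays, on which 58.3% of all probes were detected. The part of that lower overall detection in these differences was not tested. With slide as a block no difference passed in limma, and 29 of the 199 had an unadjusted p below 0.05.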

How the results depend on the processing

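Counts of probes past the threshold moved by more than 1.5 times as follows. Counts among probes detected on all 12 arrays are here from a separate fit of those probes alone. In floxed cells the 8 probes became 4 with slide as a block and 4 when scaled to 4 spike-in probes, and 2 to 12 as single arrays were left out. In deleted cells the 93 became 42 with slide as a block, 46 among probes detected on all 12 arrays, 152 when scaled to 4 spike-in probes, and 170 without a filter, of which 99 were higher. The deletion under PBS gave 5 probes after quantile normalization, 9 after normexp with quantile normalization, 10 with the percentile over detected probes, 8 and 7 with 6 and 4 spike-in probes, 1 and 0 with slide as a fixed and random block, and 0 to 13 without single arrays. The deletion under CoCl2 gave 40 with slide as a block, 65 among probes detected on all 12 arrays and 207 without a filter, and stayed within 1.5 times without any single array. The difference of changes gave 15 after quantile normalization, 8 after normexp with quantile normalization, 52 and 87 with 6 and 4 spike-in probes, 89 without a filter, 4 among probes detected on all 12 arrays, 0 and 17 with slide as a fixed and random block, and 18 to 48 without single arrays. Fewer or more probes enter under the filters; the other causes were not tested. By the scanner's looser call of a significant positive signal, deleted cells under CoCl2 had 219 probes in place of 134.

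Of 40 named results under all alternatives, 775 values kept direction and call, 141 kept direction and lost the call, and 1 reversed, uc.mouse.298 in the deletion under CoCl2 at -0.1 with 4 spike-in probes. Slide as a block ended 23 calls, the 4 spike-in probes 13 and normexp 8. With array number as a replicate block the counts were 9 in floxed and 94 in deleted cells, 2 and 122 for the deletion under PBS and CoCl2, and 32 for the difference, and of the named results only uc.mouse.156 under PBS was lost (limma adjusted p = 0.0514). As a block within genotype they were 11, 101 and 34, and only uc.mouse.387 in floxed cells was lost.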

Other observations

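Probes with consecutive numbers had levels that followed each other more often than other pairs did, given as a description only. Among the 111 probes detected on every array, 30 pairs had consecutive numbers; their median Pearson correlation over the 12 arrays was 0.21, and 8 of the 30 (26.7%) were above 0.8. Over all 6105 pairs the median was -0.00 and 5.29% were above 0.8. The highest were uc.mouse.439 with uc.mouse.440 (0.96), uc.mouse.23 with uc.mouse.24 and uc.mouse.24 with uc.mouse.25 (0.956 each), uc.mouse.440 with uc.mouse.441 (0.937) and uc.mouse.376 with uc.mouse.377 (0.924). These points share arrays, the scaling and the large shift of the deleted CoCl2 group, the pairs share members, and whether consecutive numbers lie near each other in the genome is not given in the files.

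The pattern most like that of uc.mouse.436 was uc.mouse.119 (Pearson correlation 0.956 over 12 arrays), which read -1.87, -1.38 and -1.63 in deleted cells under CoCl2, 0.18, -0.03 and -0.10 in floxed cells under CoCl2, -0.44, -0.26 and -0.49 in deleted cells with PBS, and -0.15, 0.04 and 0.51 in floxed cells with PBS. For uc.mouse.387 it was uc.mouse.377 (0.961), for uc.mouse.23 it was uc.mouse.25 (0.971), and for uc.mouse.252 it was uc.mouse.336 (0.809).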
